A study of Drosophila melanogaster with 6 samples.

Results

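The JNK pathway and the AP-1 factors were followed in regenerating wing discs of *Drosophila melanogaster* through 9 genes. They are the ligand *egr*, the receptors *grnd* and *wgn*, the kinases *slpr*, *hep* and *bsk*, the AP-1 genes *Jra* and *kay*, and the phosphatase gene *puc*. The members were taken by FlyBase symbol, not by level, from the 16455 genes listed in each of the 6 libraries. Earlier results of these data were known when they were chosen. All 9 were found. Wing discs came from larvae in the third instar, with 3 libraries labelled *CR40469*-KO and 3 labelled control. The genotype of the KO libraries is given as CR40469-KO with salE/Pv-LHG:tub-Gal80TS and lexO-rpr. The control libraries carry the same transgenes without CR40469-KO. Both had 16 h of ectopic *rpr*, so damage is shared by the groups and no undamaged disc was analysed here. LHG is a LexA-based activator that the temperature-sensitive Gal80 keeps silent until larvae are moved to the higher temperature. It is driven by an enhancer of the spalt genes in the centre of the wing disc, so cells that express *rpr* are only some of the cells sampled. Each library was made from a pool of discs, and the mutant is a single deletion line in which an mCherry cassette took the place of the lncRNA gene *CR40469*. Below, KO 1 to KO 3 and control 1 to control 3 stand for the libraries by label and replicate number.

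JNK signalling is a kinase cascade that is activated in imaginal discs by wounding, by apoptosis and by other stress. The TNF ligand Eiger binds receptors at the cell surface, the kinases Slipper, Hemipterous and Basket act in sequence, and Basket (the JNK of the fly) activates the AP-1 factors Jun and Fos, encoded by *Jra* and *kay*. The phosphatase Puckered inactivates Basket, and its gene is transcribed in response to the pathway, so *puc* is widely used as a readout of JNK activity. Most steps are changes of protein phosphorylation, which RNA levels do not measure.

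Levels are given as TPM, a gene's RNA abundance per transcript length that is scaled to a fixed total for each library. Members can therefore be compared with each other within a library. Long transcripts as a class deviated differently by library (described below), and comparisons of members of unlike length may carry that difference. TPM hold no sequencing depth, and the counting error behind a value is unknown. The deleted gene went against the labels: *CR40469* was at 535.93, 389.21 and 293.78 TPM in KO 1, KO 2 and KO 3, against 99.61, 46.44 and 82.52 TPM in control 1, control 2 and control 3. It shares nearly all its sequence with *CR34335* (1938.29, 1928.63 and 1902.09 TPM in KO libraries, against 3521.64, 2442.97 and 3201.91 TPM in control libraries), and how the shared reads were divided is not visible in TPM. Every direction below is therefore between the libraries labelled CR40469-KO and those labelled control, not between checked genotypes. The inducer *rpr* was at 144.06, 189.81 and 164.11 TPM in the KO libraries, against 132.26, 122.67 and 143.52 TPM in the control libraries. Its log2 fold change of 0.31 did not pass the test (standard error 0.15, adjusted p = 0.818 with limma), although the groups did not overlap. All 14 wing disc markers were detected, with a summed level between 817 and 1154 TPM in the KO libraries and between 667 and 1102 TPM in the control libraries. *hth*, the marker with the highest mean, lay between 123.46 and 216.22 TPM.

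None of the 9 JNK and AP-1 genes differed between the labels beyond the spread of the replicates. For each of them the range of the 3 KO libraries overlapped that of the 3 control libraries. The limma fit took log2(TPM + 1) of the genes that reached 1 TPM in any library, and fold changes are KO over control. A gene was called when it passed an adjusted p (Benjamini-Hochberg, over all genes tested) of 0.05 and a fold change of 1.7. All 9 members were among the 8051 genes tested. 0 of the 9 were called, beside 18 of all tested genes (0.224%). An unadjusted p under 0.05 was found for 0 of the 9 and for 4.82% of all tested genes. Groups that did not overlap were seen for 10.5% of the tested genes, with all KO libraries above all control libraries in 7.90% and below them in 2.56%. On the log2(TPM + 1) scale the fold changes of the members lay between -0.22 for *puc* and 0.35 for *slpr*, with a median of 0.086 beside 0.13 over all tested genes. 5 of the 9 were above 0, as were 74.9% of all tested genes, and 3 of the 9 were above the median of all tested genes. With 3 libraries a label, these tests measure the spread among the libraries deposited, and the labels do not state that the replicates came from separate crosses. A p that misses the threshold does not show that levels were equal. In pooled tissue, moreover, fewer expressing cells and less RNA per cell cannot be told apart.

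**Figure D1:**
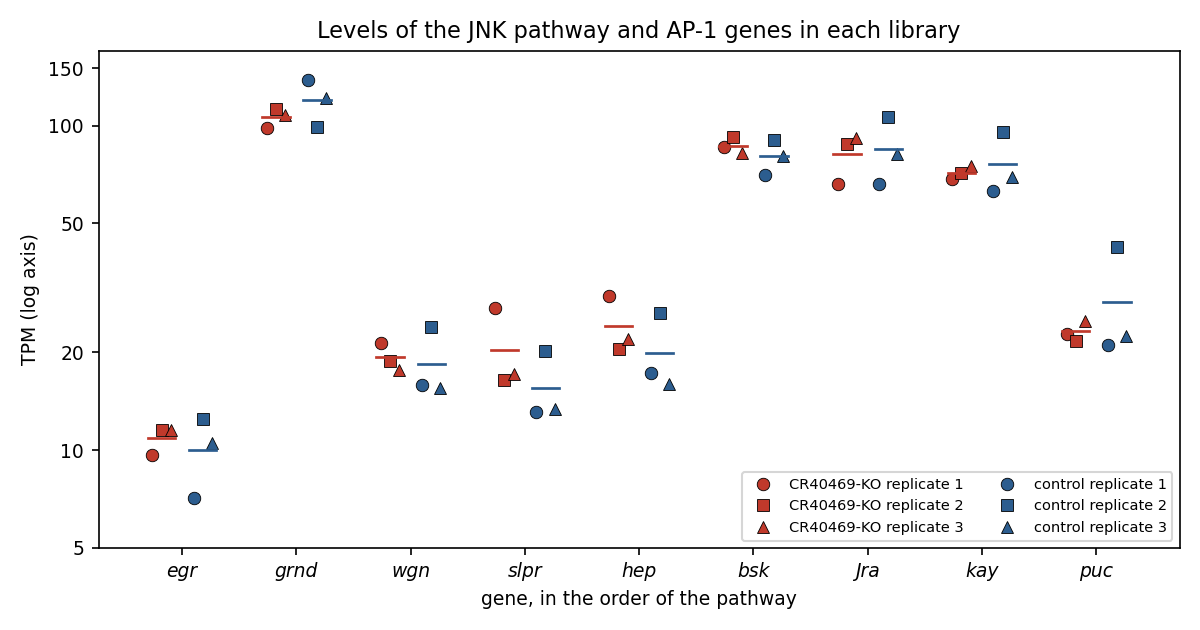
Level of each JNK pathway and AP-1 gene in TPM (log axis) in the 3 CR40469-KO libraries (red, left of each pair) and the 3 control libraries (blue), with the marker shape giving the replicate number and the bar the mean of the label. The 9 genes span 7.1 to 138.53 TPM, the labels overlap for each gene, and control replicate 2 lies apart for *puc* at 42.17 TPM.

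The ligand gene *egr* had the lowest mean of the members. *egr* (FBgn0033483, chromosome 2R, 10078366 to 10084210 on the plus strand of dm6) encodes Eiger, the TNF homologue that activates JNK. It was at 9.64, 11.56 and 11.52 TPM in the KO libraries, against 7.1, 12.46 and 10.53 TPM in the control libraries. Both the highest and the lowest value were those of control libraries. The means were 10.9 ± 1.10 TPM in KO and 10.03 ± 2.71 TPM in control libraries (SD, n = 3 each). The log2 fold change of *egr* was 0.14, with a 95% interval from -0.33 to 0.61 (adjusted p = 0.826, limma), and without control 1 it was -0.070.

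The receptor genes stood far apart in level. *grnd* (FBgn0032682, chromosome 2L, 18485417 to 18488021, plus strand) encodes Grindelwald, an Eiger receptor found at the apical side of disc epithelial cells, and had the highest mean of the 9 genes. It was at 98.6, 112.22 and 108.12 TPM in the KO libraries, against 138.53, 99.17 and 121.25 TPM in the control libraries. Control 1 was the highest, and KO 1 and control 2 were close together at the low end. The means were 106 ± 6.99 TPM in KO and 119.7 ± 19.7 TPM in control libraries (SD, n = 3 each), a log2 fold change of -0.16 (95% interval -0.53 to 0.22, adjusted p = 0.818, limma). *wgn* (FBgn0030941, chromosome X, 18624042 to 18634908, minus strand) encodes Wengen, the other TNF receptor of the fly. It was at 21.39, 18.88 and 17.7 TPM in the KO libraries, against 15.91, 23.97 and 15.49 TPM in the control libraries, so that control libraries again held both extremes. The log2 fold change of *wgn* was 0.086 (95% interval -0.36 to 0.53, adjusted p = 0.871, limma), and without control 3 it was -0.020.

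Within a library, *grnd* exceeded *wgn* everywhere, but by an amount that varied. The ratio of *grnd* to *wgn* was 4.61, 5.94 and 6.11 in the KO libraries, against 8.71, 4.14 and 7.83 in the control libraries. Receptor exceeded ligand likewise, with ratios of *grnd* to *egr* of 10.2, 9.71 and 9.39 in the KO libraries, against 19.5, 7.96 and 11.5 in the control libraries (a ratio chosen after the values were seen). For both ratios the control libraries spread around the KO libraries. The exons of *grnd* overlap those of *kon* on the opposite strand. *kon* was at 19, 10.27 and 12.76 TPM in the KO libraries, against 6.93, 14.21 and 8.47 TPM in the control libraries, and whether reads were assigned by strand is not given in the sources used here.

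The kinase genes *slpr* and *hep* had the largest positive fold changes of the members, and in both KO 1 was the highest library. *slpr* (FBgn0030018, chromosome X, 8170229 to 8177185, minus strand) encodes Slipper, the mixed lineage kinase at the top of the cascade. It was at 27.39, 16.5 and 17.2 TPM in the KO libraries, against 13.14, 20.25 and 13.39 TPM in the control libraries. KO 1 stood above the rest, control 2 was next, and control 1 and control 3 were lowest. The means were 20.4 ± 6.10 TPM in KO and 15.6 ± 4.03 TPM in control libraries (SD, n = 3 each). The log2 fold change of *slpr* was 0.35 (standard error 0.24), with a 95% interval from -0.20 to 0.91 that reaches past 1.7-fold (adjusted p = 0.818, limma).

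*hep* (FBgn0010303, chromosome X, 13079205 to 13090434, minus strand) encodes Hemipterous, the MAP kinase kinase that phosphorylates Basket. It was at 29.89, 20.45 and 21.92 TPM in the KO libraries, against 17.34, 26.41 and 15.96 TPM in the control libraries. The libraries fell in nearly the order seen for *slpr*, with KO 1 and control 2 highest and control 1 and control 3 lowest. The means were 24.1 ± 5.08 TPM in KO and 19.9 ± 5.68 TPM in control libraries (SD, n = 3 each), a log2 fold change of 0.28 (95% interval -0.24 to 0.80, adjusted p = 0.818, limma). The ratio of *slpr* to *hep* was 0.916, 0.807 and 0.785 in the KO libraries, against 0.758, 0.767 and 0.839 in the control libraries. This was a narrow range, with the highest ratio 1.21 times the lowest. The exons of *slpr* overlap those of *CG2278* on the same strand, which was at 1.17 to 1.63 TPM in the KO libraries and at 1.68 to 2.4 TPM in the control libraries.

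Long transcripts as a class varied in the same way as *slpr* and *hep*. The longest annotated transcripts of *slpr* (5594 bases) and *hep* (5689 bases) are the longest of the 9 members. For the 1501 tested genes with the longest transcripts (4 kb or more), the median deviation from a gene's mean over the 6 libraries, in log2 units, was 0.52, -0.11 and -0.03 in KO 1, KO 2 and KO 3, against -0.36, 0.23 and -0.25 in control 1, control 2 and control 3. The deviations of *slpr* were 0.62, -0.07 and -0.02 in the KO libraries, against -0.38, 0.21 and -0.36 in the control libraries. After each library was adjusted for transcript length, an alternative added after the data were seen, those of *slpr* were 0.11, 0.03 and 0.01 in the KO libraries, against -0.04, -0.02 and -0.10 in the control libraries. Under that adjustment the log2 fold change of *slpr* was 0.10 and that of *hep* 0.024. *egr* was at 0.0061, *bsk* at 0.0053 and *wgn* at -0.064. *puc*, *grnd*, *kay* and *Jra*, already below 0, moved farther below it, to -0.38, -0.29, -0.28 and -0.12. The adjustment thus lowered the fold changes of all 9 members. It also lowered the median of all tested genes, from 0.13 to -0.00019. KO 1 was the highest library for 51.9% of all tested genes. *kay*, whose longest transcript has 4574 bases, belongs to the same length class, but KO 1 was among its low libraries.

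**Figure D2:**
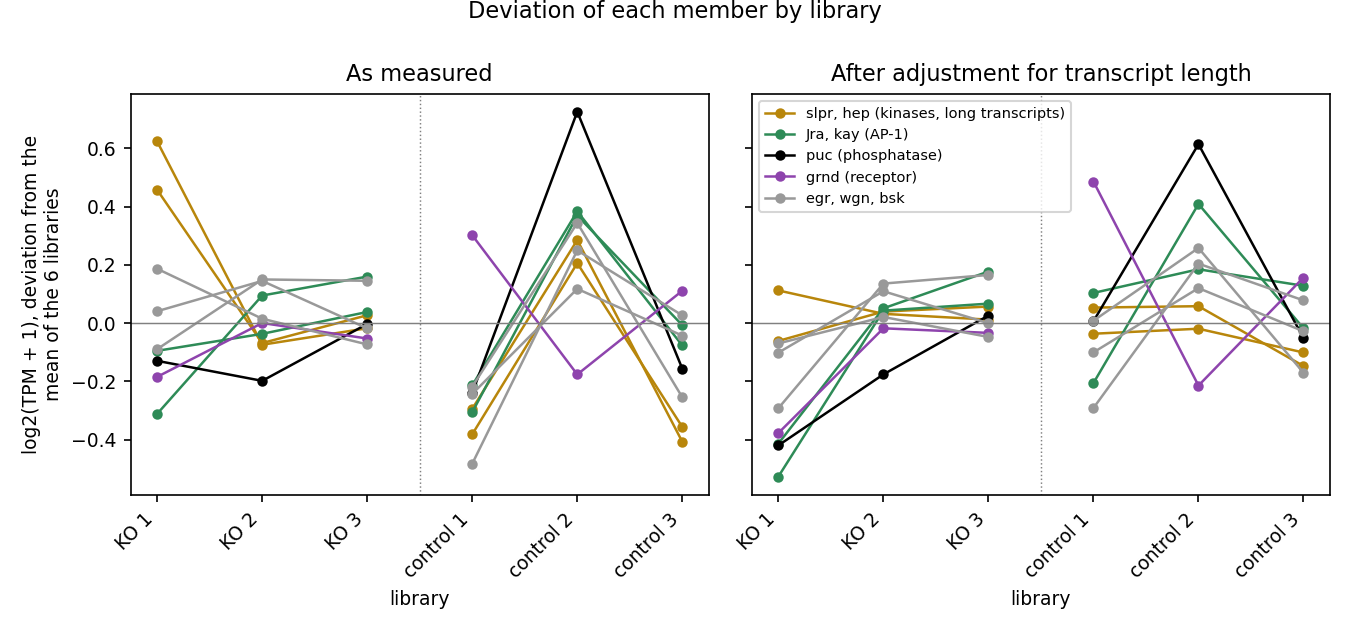
Deviation of log2(TPM + 1) from the mean of the 6 libraries for each member, as measured (left) and after adjustment of each library for transcript length (right), with the KO libraries left of the control libraries. Lines join the points of a gene and have no order in time; in KO 1 *slpr* lies at 0.62 as measured and at 0.11 after adjustment, and in control 2 *puc* lies at 0.73 and at 0.61.

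*bsk* was the steadiest of the kinase genes. *bsk* (FBgn0000229, chromosome 2L, 10247502 to 10250501, minus strand) encodes Basket, the only JNK of the fly. It was at 85.72, 92.21 and 82.25 TPM in the KO libraries, against 70.23, 90.46 and 80.83 TPM in the control libraries. Except for control 1, which was lowest, the libraries lay close together. The means were 86.7 ± 5.06 TPM in KO and 80.5 ± 10.1 TPM in control libraries (SD, n = 3 each), a log2 fold change of 0.11 (95% interval -0.23 to 0.45, adjusted p = 0.821, limma). When the libraries were scaled by their median ratio, the log2 fold change of *bsk* was -0.017 and that of *wgn* -0.038. Basket RNA exceeded that of the kinase that acts on it. The ratio of *hep* to *bsk* was 0.349, 0.222 and 0.267 in the KO libraries, against 0.247, 0.292 and 0.197 in the control libraries, and overlapped between the labels. The longest transcript has 5689 bases for *hep* and 1797 for *bsk*, and the part of length in this ratio was not tested.

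The AP-1 genes were highest in control 2. *Jra* (FBgn0001291, chromosome 2R, 10096480 to 10098556, plus strand), which lies 12.27 kb from *egr*, encodes Jun. It was at 65.9, 87.66 and 91.75 TPM in the KO libraries, against 66.16, 106.26 and 81.62 TPM in the control libraries. Each label had a library near 66 TPM, KO 1 and control 1, and the others lay above. The means were 81.8 ± 13.9 TPM in KO and 84.7 ± 20.2 TPM in control libraries (SD, n = 3 each), a log2 fold change of -0.038 (95% interval -0.53 to 0.45, adjusted p = 0.944, limma). Exons of *Jra* overlap those of *RpLP0-like* on the opposite strand, which was at 159.05, 184.39 and 187.19 TPM in the KO libraries, against 239.41, 160.88 and 198.95 TPM in the control libraries.

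*kay* (FBgn0001297, chromosome 3R, 29765995 to 29794113, plus strand) encodes Fos (Kayak), the partner of Jun in the AP-1 dimer. It was at 68.35, 71.21 and 75.07 TPM in the KO libraries, against 62.87, 95.66 and 69.24 TPM in the control libraries. Control 2 stood above the 5 others, which lay within a narrow range. The means were 71.5 ± 3.37 TPM in KO and 75.9 ± 17.4 TPM in control libraries (SD, n = 3 each), a log2 fold change of -0.062 (95% interval -0.48 to 0.35, adjusted p = 0.898, limma). The AP-1 genes had similar levels within each library. The ratio of *kay* to *Jra* was 1.04, 0.812 and 0.818 in the KO libraries, against 0.950, 0.900 and 0.848 in the control libraries, so *Jra* was the higher except in KO 1.

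The readout gene *puc* had the most negative fold change of the members, and it rested on 1 library. *puc* (FBgn0243512, chromosome 3R, 8105332 to 8122294, plus strand) encodes the phosphatase of Basket. It was at 22.86, 21.75 and 25.05 TPM in the KO libraries, against 21.11, 42.17 and 22.42 TPM in the control libraries. 5 libraries lay between 21.11 and 25.05 TPM, and control 2 was 1.68 times the highest of them. The means were 23.2 ± 1.68 TPM in KO and 28.6 ± 11.8 TPM in control libraries (SD, n = 3 each). The log2 fold change was -0.22 (standard error 0.25, 95% interval -0.80 to 0.36, adjusted p = 0.818, limma). Without control 2 it was 0.088, with *kay* at 0.11 and *Jra* at 0.14, so that the direction of all 3 genes turned. The ratio of *puc* to *bsk* was 0.267, 0.236 and 0.305 in the KO libraries, against 0.301, 0.466 and 0.277 in the control libraries, and control 2 was again the value apart.

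**Figure D3:**
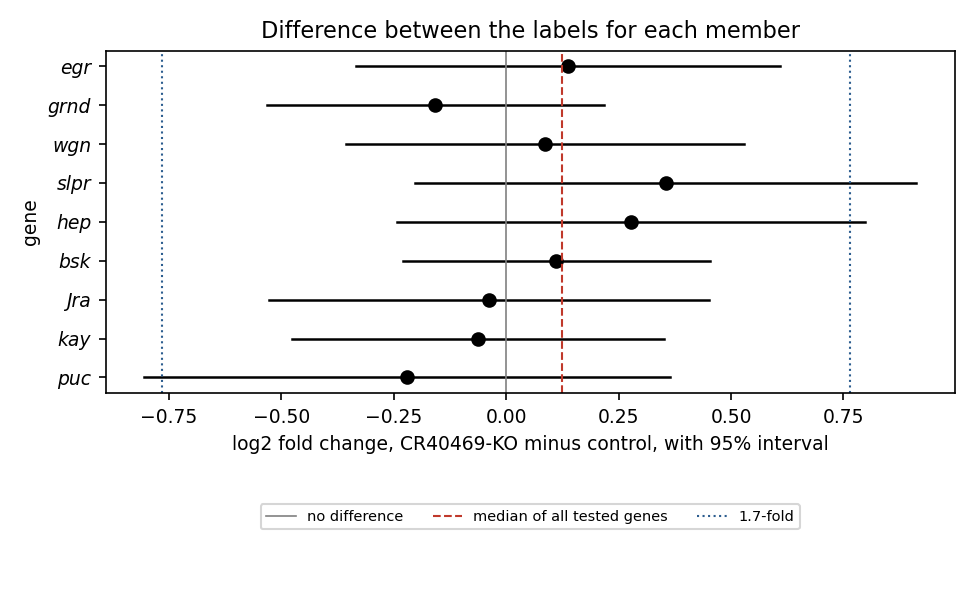
Log2 fold change (CR40469-KO minus control, on log2(TPM + 1)) of each member with its 95% interval from limma, with dotted lines at 1.7-fold and a dashed line at the median of all tested genes (0.13). Every interval includes 0, and those of *slpr*, *hep* and *puc* reach past 1.7-fold.

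The precision of these fits bounds what could be seen. For 6 of the 9 members the 95% interval lay wholly inside 1.7-fold in either direction, as it did for 78.4% of all tested genes. The intervals of *slpr*, *hep* and *puc* did not. For *slpr* the fold was 1.28 with an interval from 0.869 to 1.88, and for *puc* it was 0.858 with an interval from 0.573 to 1.29. The members under a label varied most for *puc* in the control libraries, with a coefficient of variation of 41.3%, against 7.23% in the KO libraries.

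Control 2 was the highest library for 5 of the 9 members, namely *egr*, *wgn*, *Jra*, *kay* and *puc*, and for 10.8% of all tested genes. This was not particular to the members. Control 2 was also highest for 5 of the 14 wing disc markers and 10 of the 25 upstream adaptors and kinases described below. It was highest for 0 of 6 AP-1 partners and 0 of 6 p38 and ERK kinases. How far control 2 stood above the next library differed among the members. Control 2 exceeded the next library by 1.08 times for *egr*, 1.12 times for *wgn*, 1.16 times for *Jra*, 1.27 times for *kay* and 1.68 times for *puc*. Among the 6255 genes with a mean of at least 10 TPM, control 2 stood as far above the rest as for *kay* in 39 genes, which is 0.624%, and as far as for *puc* in 8 genes, which is 0.128%. The 8 genes are *puc* itself, the heat shock genes *Hsp70Ba*, *Hsp70Bc*, *Hsp22* and *Hsp68*, *stv* (the fly homologue of the co-chaperone BAG3), *ana* and *ltl*. They were listed because of their values. For *Jra*, *kay* and *puc* KO 3 was the next library, an order that 1.79% of all tested genes had.

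Of 15 heat shock genes taken by symbol after these values were seen, 11 were highest in control 2, as *puc* was, beside 10.8% of all tested genes. The 11 include the near-identical Hsp70 copies. The other 4 were not (*Hsp23* and *Hsp67Bc* were highest in KO 3, *Hsp27* and *Hsp67Ba* in KO 2). *Hsp68* was at 5.69, 25.59 and 141.76 TPM in the KO libraries, against 11.19, 257.96 and 30.8 TPM in the control libraries. *Hsp22* was at 3.72, 18.76 and 84.92 TPM in the KO libraries, against 9.83, 156.3 and 18.05 TPM in the control libraries. For both genes control 2 was highest and KO 3 next, as for *puc*, *kay* and *Jra*, but KO 3 stood far above the remaining libraries in *Hsp68* and *Hsp22* and only slightly above them in *puc*. KO 1 was the lowest library for *Hsp68* and *Hsp22*, and also for *Jra*, but not for *puc* or *kay*. The part of this difference between libraries in the levels of the JNK genes was not tested.

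*kay* was also the gene whose pattern over the libraries was most like that of *puc*. Among 6254 genes with a mean of at least 10 TPM, Pearson's r with *puc* on log2(TPM + 1) over the 6 libraries was 0.965 for *kay*, 0.952 for *CG1146* and 0.938 for *IP3K1*. Over the 5 libraries without control 2, r was 0.811 for *kay*, 0.787 for *CG1146* and 0.783 for *IP3K1*. Over the 4 left when KO 3 was dropped as well, it was 0.580 for *kay*, 0.796 for *CG1146* and 0.685 for *IP3K1*. The ratio of *puc* to *kay*, chosen after the values were seen, was 0.334, 0.305 and 0.334 in the KO libraries, against 0.336, 0.441 and 0.324 in the control libraries. Outside control 2 it was nearly constant. Of the other members, *Jra* had an r of 0.742 with *puc* and *wgn* 0.741, while *grnd* had the one negative value (-0.57). Without control 2 and KO 3, r with *puc* lay between 0.00282 for *Jra* and 0.693 for *slpr* among the other members, apart from *grnd* (-0.83). As all libraries of both labels enter, these values describe 6 points and carry no test.

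**Figure D4:**
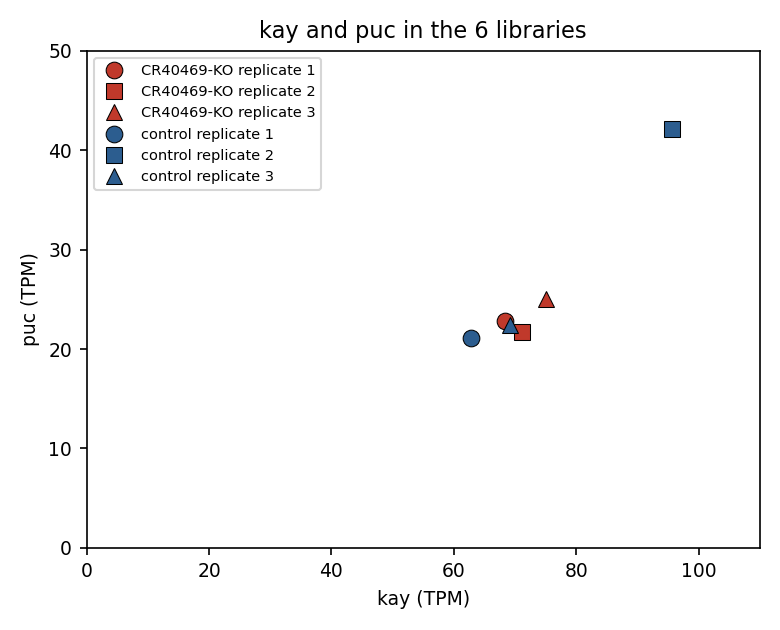
*puc* against *kay* in TPM in the 6 libraries (red, CR40469-KO; blue, control; the marker shape gives the replicate number). Control replicate 2 lies apart at 95.66 TPM for *kay* and 42.17 TPM for *puc*, and the 5 other libraries lie between 21.11 and 25.05 TPM for *puc*.

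By mean over the 6 libraries, the members fell in the order *grnd*, *bsk*, *Jra*, *kay*, *puc*, *hep*, *wgn*, *slpr* and *egr*. The order had 3 gaps at which the ranges of neighbours did not overlap. *grnd* had 98.6 TPM or more and *bsk* 92.21 TPM or less, *kay* 62.87 TPM or more and *puc* 42.17 TPM or less, and *slpr* 13.14 TPM or more and *egr* 12.46 TPM or less. The largest step was from *kay* to *puc*, with means 2.85 times apart. Between these gaps the ranges of neighbours overlapped: *bsk* exceeded *Jra* in 3 of 6 libraries, *Jra* exceeded *kay* in 5, *puc* exceeded *hep* in 5 and *wgn* exceeded *slpr* in 5. *hep* exceeded *wgn* in 6 of 6 although their ranges overlapped. The receptor *grnd*, the JNK gene and the AP-1 genes thus formed an abundant group, and the ligand, *wgn*, the upper kinases and *puc* a low one.

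The 25 genes listed as adaptors and kinases upstream of JNK were all tested, and 0 were called or had an unadjusted p under 0.05. In 23 of them the fold change was above 0, with a median of 0.17. Of all tested genes 74.9% were above 0, with a median of 0.13. *Rho1*, a small GTPase of the cytoskeleton that acts above JNK, had the lowest p of the list (unadjusted p = 0.109, adjusted p = 0.818, limma). It was at 522.91, 462.44 and 409.93 TPM in the KO libraries, against 367.86, 409.83 and 378.62 TPM in the control libraries, and the labels were apart only by 409.93 against 409.83 TPM. The log2 fold change was 0.26 for *Rho1*, 0.31 for the scaffold gene *Cka* and 0.24 for the GTPase gene *Cdc42*, and none passed the test. *Mkk4*, which encodes the other kinase kinase of JNK, was at 54.77, 59.2 and 53.93 TPM in the KO libraries, against 46.5, 55.36 and 53.73 TPM in the control libraries. *Tak1*, a kinase that acts above Hemipterous, was at 29.6, 21.58 and 21.36 TPM in the KO libraries, against 18.39, 23.22 and 19.79 TPM in the control libraries. The groups overlapped for *Mkk4* and *Tak1*. Of the 25 genes, 12 were highest in KO 1 and 10 in control 2, beside 51.9% and 10.8% of all tested genes.

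Of the 10 genes listed as restraining JNK or as its scaffolds, 9 were tested (*Aplip1* stayed at or below 0.2 TPM), and 0 were called or had an unadjusted p under 0.05. All 9 fold changes were above 0, with a median of 0.17, beside 74.9% and a median of 0.13 for all tested genes. The lowest p values were those of *syd*, a JNK scaffold (log2 fold change 0.28), of *dlg1*, a polarity gene (0.30), and of *CYLD*, a deubiquitinase (0.21). Their unadjusted p values were 0.126, 0.156 and 0.260 (adjusted p = 0.818 each, limma).

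The 6 genes listed as partners of AP-1 were all tested, with 0 called and 0 at an unadjusted p under 0.05. *Atf-2*, a bZIP factor phosphorylated by p38 and JNK, was at 19.84, 15.07 and 13.36 TPM in the KO libraries, against 11.14, 12.83 and 13.35 TPM in the control libraries. The groups were apart by 13.36 against 13.35 TPM, and the log2 fold change of 0.33 did not pass the test (unadjusted p = 0.0937, adjusted p = 0.818, limma). *CrebA*, a bZIP factor of secretory cells, had a log2 fold change of 0.38 (unadjusted p = 0.0917) and *maf-S*, the small Maf partner, of -0.20 (unadjusted p = 0.287). The damage-induced *Atf3* was at 7.58, 1.64 and 1.95 TPM in the KO libraries, against 4.08, 2.71 and 2.23 TPM in the control libraries. In *Atf3* KO 1 was highest and control 1 next, whereas control 1 was the lowest library for *puc*.

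The 20 genes listed as targets of JNK and AP-1 included 18 that were tested. *zip* was not matched, and *NLaz* stayed below 1 TPM. 0 of the 18 were called, 12 had a fold change above 0 (74.9% of all tested genes), and the median was 0.10 (0.13 over all tested genes). *scaf*, a serine protease homologue that restrains JNK in the embryo, was at 39.09, 28.32 and 36.07 TPM in the KO libraries, against 40.27, 52.42 and 45.45 TPM in the control libraries. All KO libraries of *scaf* were below all control libraries, which 2.56% of the tested genes showed, but the log2 fold change of -0.41 (standard error 0.17) did not pass the test after adjustment (unadjusted p = 0.0455, adjusted p = 0.818, limma). *scaf*, like *puc*, was highest in control 2. The other low p values were those of *Sesn*, a stress-induced inhibitor of TOR signalling (log2 fold change 0.34, unadjusted p = 0.0670), and *rpr*, which is at the same time the transgene.

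The targets differed in which library was highest, as 4 genes chosen with their values in view show. *Ilp8*, the relaxin-like signal that delays metamorphosis, was at 19.55, 2.65 and 4.48 TPM in the KO libraries, against 12.58, 1.29 and 8.89 TPM in the control libraries. KO 1, control 1 and control 3 were high within their labels, and control 2, in which *puc* was highest, had the lowest *Ilp8* of the 6. *upd1*, a cytokine of the JAK/STAT pathway, was at 9.27, 3.85 and 3.46 TPM in the KO libraries, against 3.9, 3.36 and 3.91 TPM in the control libraries. Control 2 was the lowest there too, and KO 1 stood apart. *Mmp1*, a matrix metalloprotease and AP-1 target, was at 68.83, 53.48 and 57.58 TPM in the KO libraries, against 54.71, 55.29 and 49.2 TPM in the control libraries. *ple*, which encodes tyrosine hydroxylase and responds to wounding in the epidermis, was at 0.21, 0.75 and 0.54 TPM in the KO libraries, against 0.38, 2.17 and 0.35 TPM in the control libraries, so that control 2 was highest, as for *puc*. Among the 18 targets KO 1 was the highest library for 9 and control 2 for 4 (*hid*, *scaf*, *Ddc* and *ple*). The shares over all tested genes were 51.9% for KO 1 and 10.8% for control 2.

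**Figure D5:**
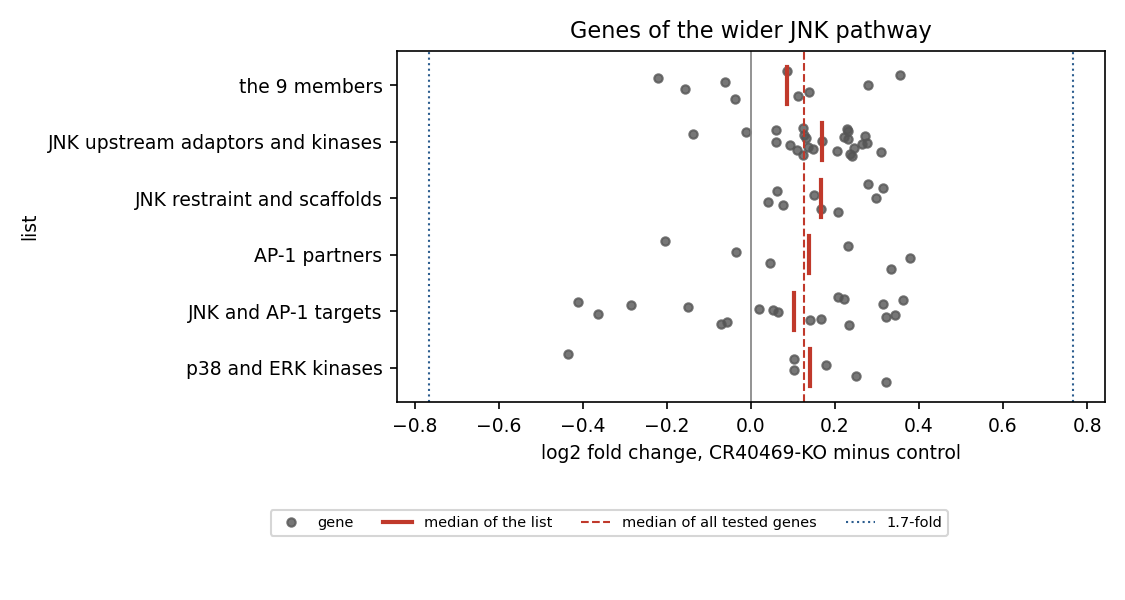
Log2 fold change (CR40469-KO minus control, on log2(TPM + 1)) of each tested gene of the 9 members and of the 5 other lists of the pathway, with the median of each list (red bar), the median of all tested genes (dashed) and 1.7-fold (dotted). All genes shown lie inside 1.7-fold, and the medians of the lists lie between 0.086 and 0.17.

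The neighbouring MAP kinases were listed for comparison, and 6 of the 7 were tested (*p38c* stayed below 1 TPM). 0 were called. *rl*, the ERK of the fly, was at 113.02, 156.78 and 140.68 TPM in the KO libraries, against 214.07, 158.6 and 182.91 TPM in the control libraries. All KO libraries lay below all control libraries, at a log2 fold change of -0.44 that did not pass the test after adjustment (unadjusted p = 0.0416, adjusted p = 0.818, limma). *Dsor1*, its kinase kinase, had a log2 fold change of 0.32 (unadjusted p = 0.0566) and *Raf* of 0.25 (unadjusted p = 0.264).

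Markers of other tissues were listed as a check on the sample. Summed over each list, those of disc myoblasts (*twi* and 5 others) were at 104 to 116 TPM in the KO libraries and 85 to 107 TPM in the control libraries. Haemocyte markers reached 42.7 to 88.0 TPM in the KO libraries and 38.3 to 53.0 TPM in the control libraries, where *crq* had the highest mean and *Hml*, a defining marker, stayed at or below 0.85 TPM. Fat body markers (led by *Tsf1*) were at 8.42 to 13.3 TPM in the KO libraries and 11.8 to 19.2 TPM in the control libraries. In 3 of the 6 fat body markers tested, *Lsp2*, *Fbp1* and *Fbp2*, all KO libraries were below all control libraries, as in 2.56% of all tested genes. These 3 genes were near the floor, below 1 TPM in every KO library. They passed the filter only through control libraries, so their direction was partly set by the filter. The median log2 fold change of the 6, which include these 3, was -0.59 and carries the same limit. *Fbp2*, a fat body protein gene, was at 0.52, 0.88 and 0.95 TPM in the KO libraries, against 3.02, 2.96 and 2.06 TPM in the control libraries (log2 fold change -1.04, adjusted p = 0.0747, limma). Tracheal markers (led by *verm*) were at 377 to 471 TPM in the KO libraries, all above the 302 to 347 TPM of the control libraries. Most of this sum was *verm* and *serp*, with means of 240 and 116 TPM, beside 10.8 TPM for *trh* and 4.60 TPM for *btl*. Singly, *verm* and *btl* had all KO libraries above all control libraries, as did 7.90% of all tested genes, while *serp* and *trh* overlapped. Neuronal markers reached 9.35 to 12.4 TPM in the KO libraries and 6.73 to 9.41 TPM in the control libraries. Nearly all of that was *elav*, the only neuronal marker that passed the filter, as *nSyb*, *brp* and *Syt1* stayed at or below 0.38 TPM. Salivary gland markers (led by *Sgs7*) reached 0.5 to 4.46 TPM in the KO libraries and 0.68 to 3.27 TPM in the control libraries. The part of these tissues in the levels of the members was not tested.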

How the data were processed

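RNA of wing discs was sequenced in 6 libraries, grouped by the label in their titles. The labels and methods name poly-A selection, but a supplement names total RNA, which leaves the kind of library unsettled. The authors aligned reads to dm6 with STAR 2.4.0j, keeping alignments with up to 4 mismatches and 10 loci, and deposited TPM per gene from RSEM 1.2.21 on the FlyBase 6.29 annotation. Reads shared by overlapping or near-identical genes were divided by RSEM, and no counts or depth were analysed here.

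TPM were tested with limma 3.58.1 (R 4.3.3; lmFit and eBayes) on log2(TPM + 1), with the label as the only term. The filter left 8051 genes and removed 8404. The value of 1 added before taking logs understates the change of low genes. Symbols and positions came from the Ensembl annotation of the same assembly and matched 16402 identifiers. The code was tested on simulated data.

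Members and lists were chosen with earlier results of these data known. Named were the members, *CR40469*, *CR34335* and *rpr*, the 3 genes with the lowest p and all called genes of each pathway list, the most abundant gene of each marker list and the 3 genes most like *puc*. Other names, among them *Mkk4*, *Tak1*, *Atf3*, the *puc* to *kay* and *grnd* to *egr* ratios, the further targets and the heat shock genes, were picked with their values in view. Alternatives tried were a different pseudocount, other filters, another scaling, a replicate block, a variance trend, no fold threshold, each library left out, and, added later, an adjustment for transcript length (lowess), that adjustment with the block, and 2 libraries dropped together. Figures were drawn with matplotlib 3.10.9.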

Additional observations from a re-analysis of the deposited data

How the results depend on the processing

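Under all 16 alternatives, 3 of them added after the data were seen, 0 of the 9 members were called, and the lowest adjusted p of any member was 0.116 (*slpr*, limma, with control 2 and KO 1 dropped together). The median log2 fold change of the members was 0.086 as reported, between -0.046 and 0.20 with single libraries left out, -0.038 under scaling by median ratios (where the median of all tested genes was 0.0014), -0.064 after length adjustment and 0.21 with both libraries dropped. Among 144 fits of single members, 14 reversed in direction, none of them past the threshold. Many of the 144 could not reverse. The other filters, the replicate block, the variance trend and the absent fold threshold leave each member's fold change as reported. The length adjustment gives the same fold changes with and without the block, so it counts double. Under median-ratio scaling the reversed members were *wgn* (-0.038) and *bsk* (-0.017). After length adjustment *wgn* was at -0.064, without and with the block. With control 2 and KO 1 dropped, *Jra* was at 0.28, *kay* at 0.15 and *puc* at 0.097. With single libraries left out the log2 fold changes ranged from -0.070 to 0.30 for *egr* (reversed without control 1), from -0.020 to 0.28 for *wgn* (reversed at -0.0018 without control 1 and at -0.020 without control 3), from -0.20 to 0.14 for *Jra* (0.11 without KO 1, 0.14 without control 2), from -0.18 to 0.11 for *kay* and from -0.39 to 0.088 for *puc* (both reversed without control 2). The ranges were 0.13 to 0.55 for *slpr*, 0.12 to 0.49 for *hep*, -0.29 to -0.046 for *grnd* and 0.019 to 0.20 for *bsk*.

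The count of 18 called genes among all tested became 11 without the filter (more genes tested), 35 after length adjustment and 168 with both libraries dropped, and ranged from 6 without control 1 to 35 without KO 1. The cause was not tested. In the other pathway lists 0 genes were called except with both libraries dropped, when 2 were, *Ilp8* (log2 fold change -1.37, adjusted p = 0.0144, limma) and *Thor* (-1.08, adjusted p = 0.0133, limma). As reported, *Ilp8* was at 0.14 and *Thor* at -0.36.

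Same-numbered libraries of the 2 labels deviated together with r of -0.03, -0.35 and 0.16, and differently numbered ones with r between -0.39 and 0.47. The deviations were taken from the mean of each label, so the values depend on each other. They cannot decide whether the replicate numbers pair the libraries. With a replicate block 31 genes and 0 members were called. TPM hold no depth, so counting error could not be set against these differences.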

Other observations

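The heat shock genes were looked at after the pattern of *puc* was seen, and several differed widely between libraries of the same label. Of 15 genes taken by symbol, 11 were highest in control 2, as were 10.8% of all tested genes. 10 of the 11 had KO 3 as the next library, an order that 1.79% of all tested genes had. *Hsp70Bbb* was at 0.19, 10.27 and 148.1 TPM in KO 1, KO 2 and KO 3, against 2.58, 219.78 and 11.5 TPM in control 1, control 2 and control 3. The Hsp70 genes, which make up much of the 11, are near-identical copies, so the division of reads among them is uncertain. They cannot be counted as separate genes with the same order, and *Hsp70Aa* stayed at or below 0.33 TPM. *Hsp26*, a small heat shock gene, was at 298.02, 763.23 and 1171.92 TPM in the KO libraries, against 395.99, 1487.12 and 607.49 TPM in the control libraries. *DnaJ-1*, which encodes an Hsp40 co-chaperone, was at 98.04, 108.88 and 152.65 TPM in the KO libraries, against 72.23, 249.9 and 95.22 TPM in the control libraries. The exceptions were *Hsp23* and *Hsp67Bc*, which were highest in KO 3, and *Hsp27* and *Hsp67Ba*, which were highest in KO 2.

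The collagen IV genes separated KO 1 from the other libraries. *Col4a1* was at 30.04, 4.64 and 8.02 TPM in the KO libraries, against 15, 8.68 and 8.12 TPM in the control libraries, and *vkg* at 21.18, 2.94 and 5.22 TPM in the KO libraries, against 9.25, 5.78 and 5.4 TPM in the control libraries. *Thor*, which encodes the translation inhibitor 4E-BP, was at 21.01, 5.14 and 7.7 TPM in the KO libraries, against 14.87, 9.52 and 14.02 TPM in the control libraries. KO 1 and control 1 were highest for each of these 3 genes.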
